A study of Homo sapiens with 6 samples.

Results

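The genes described here are 41 genes of glucose breakdown and of the response to low oxygen, out of 69292 gene IDs in the count table of the series. They were listed by symbol: 24 encode glucose transporters, glycolytic enzymes, lactate-handling proteins and regulators of glycolytic flux, and 17 encode hypoxia-inducible factor (HIF) subunits, oxygen sensors and hypoxia-inducible products. All 41 had at least 1 count in every library and passed the filter on low counts. RNA was sequenced from MDA-MB-231 cells in 3 groups of 2 libraries; the line comes from a human breast tumour and has a mesenchymal phenotype. The study asked what distinguishes cells that became resistant to inhibitors of the kinase mTOR.

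The parental group, called MDA-MB-231/WT, received no drug per the protocol, although 1 label field names DMSO as its treatment. The everolimus group, MDA-MB-231/DREVE, was a derivative kept for several months in 20 µM everolimus, and the ridaforolimus group, MDA-MB-231/DRRIDA, a derivative kept as long in 30 µM ridaforolimus. Both drugs are rapamycin analogs. Every group grew in DMEM with 10% fetal bovine serum. Each resistant line was a single derivative that stayed in its drug, so resistance, exposure to the drug and drift of that derivative cannot be told apart. No label says that the libraries of a group came from separate cultures. The p-values therefore measure the spread between these libraries, which may be technical.

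Glycolysis splits glucose into pyruvate, which lactate dehydrogenase turns into lactate when cells rely on glycolysis for energy. HIF is a pair of an oxygen-labile alpha subunit and a stable partner. With oxygen present, prolyl hydroxylases mark the alpha subunit for destruction by the VHL ubiquitin ligase. Without it, the pair binds hypoxia response elements in DNA and raises transcription of glucose transporters, most glycolytic enzymes, vessel growth factors and carbonic anhydrases. Active mTOR complex 1 is known to raise the production of HIF-1 alpha and the expression of glycolytic genes.

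The core of a hypoxia response element reads ACGTG or GCGTG. These letters were searched on both strands, so that a match on the other strand reads CACGT or CACGC, in the 250 bases before each RefSeq gene start (GRCh38.p14). Promoters were matched for 36 of the 41 genes. The others were SLC2A3, SLC16A1, VEGFA, BNIP3L and NDRG1. A core was present in 24 of the 36 (66.7%), in 12 of 14 matched hypoxia genes (85.7%) and in 12 of 22 matched glycolysis genes (54.5%). Among promoters of the tested genes 53.1% of 17728 held a core, and 43.2% of all 35116 RefSeq promoters did. With ACGTG alone the shares were 41.7% of the 36 and 21.6% of the tested genes' promoters. The promoters below belong to PGK1, P4HA1, ENO2, ALDOC and CA9, which had the 5 highest log2 fold change estimates of the ridaforolimus over the parental group. They run 5′ to 3′ on the gene's strand, with the core matches in capitals.
PGK1: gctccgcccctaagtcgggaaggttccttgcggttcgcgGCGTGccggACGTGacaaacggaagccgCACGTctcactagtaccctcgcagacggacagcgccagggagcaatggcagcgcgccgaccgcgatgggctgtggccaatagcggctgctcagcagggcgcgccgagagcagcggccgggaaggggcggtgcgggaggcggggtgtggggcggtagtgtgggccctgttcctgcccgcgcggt
P4HA1: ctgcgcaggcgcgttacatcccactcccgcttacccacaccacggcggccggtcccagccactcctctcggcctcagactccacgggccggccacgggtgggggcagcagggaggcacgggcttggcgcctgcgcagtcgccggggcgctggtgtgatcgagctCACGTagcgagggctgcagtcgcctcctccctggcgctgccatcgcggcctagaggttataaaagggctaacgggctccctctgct
ENO2: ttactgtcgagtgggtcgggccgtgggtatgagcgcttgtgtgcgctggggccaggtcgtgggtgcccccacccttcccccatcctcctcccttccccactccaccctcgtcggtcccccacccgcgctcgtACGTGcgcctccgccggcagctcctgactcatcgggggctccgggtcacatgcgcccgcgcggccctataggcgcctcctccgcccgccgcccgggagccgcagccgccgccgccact
ALDOC: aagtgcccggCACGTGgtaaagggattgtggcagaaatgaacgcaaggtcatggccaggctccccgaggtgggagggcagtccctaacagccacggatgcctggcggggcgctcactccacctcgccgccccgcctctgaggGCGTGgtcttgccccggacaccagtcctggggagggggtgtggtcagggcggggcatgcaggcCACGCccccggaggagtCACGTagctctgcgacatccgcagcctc
CA9: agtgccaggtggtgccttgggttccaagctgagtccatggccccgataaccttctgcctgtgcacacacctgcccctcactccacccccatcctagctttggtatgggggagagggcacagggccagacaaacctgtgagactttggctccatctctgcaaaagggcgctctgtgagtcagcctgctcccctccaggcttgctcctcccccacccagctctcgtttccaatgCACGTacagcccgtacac
They lie at chrX:78103998-78104247 (plus strand), chr10:73096867-73097116 (minus), chr12:6914330-6914579 (plus), chr17:28576896-28577145 (minus) and chr9:35673678-35673927 (plus). The PGK1 stretch held 3 matches and the ALDOC stretch 5, of which 2 overlap in the palindrome CACGTG. The other promoters held 1 each. A match is a run of letters and no evidence that HIF binds there.

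Total counts ranged from 13134567 to 15556246 per library. On the first principal component over all genes, ridaforolimus scores were 36.41 and 73.21, and those of the other libraries -33.73 to -22.13. Of 7 mesenchymal markers VIM (302 to 646 CPM, counts per 1e6 counts), CD44, FN1, AXL and ZEB1 were expressed, while SPARC and CDH2 stayed at or under 1.02 CPM. Of 6 luminal and receptor genes the epithelial cadherin CDH1 did not exceed 0.229 CPM, the oestrogen receptor ESR1 0.916 CPM and the progesterone receptor PGR 0.146 CPM, while ERBB2, which encodes HER2, lay at 44.3 to 62.9 CPM and FOXA1 at 3.12 to 7.93 CPM in every library. GATA3, a luminal transcription factor, had 3.9 and 4.37 CPM in the parental, 3.91 and 5.88 in the everolimus and 0.915 and 0.95 in the ridaforolimus libraries, and was called as lower in ridaforolimus over everolimus cells (-2.38, adjusted p = 0.0403 by edgeR). The endothelial cadherin CDH5 lay at or under 0.382 CPM, the T cell gene CD3E and the fibroblast gene LUM at 0 in every library. Other markers of these lists were detected, with the endothelial PECAM1 at 0.457 to 11.5 CPM and the fibroblast COL1A1 at 5.14 to 15.6 CPM. The 4 endothelial, 6 fibroblast and 5 immune markers summed to at most 15.7, 16.1 and 2.22 CPM in a library.

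Of the 41 genes, PGK1 passed the test in 1 of the 3 comparisons and the other 40 in none. In everolimus-resistant over parental cells 0 of 41 passed an adjusted p of 0.05 in edgeR's quasi-likelihood test, against 0.00471% of all 21223 genes tested. At an unadjusted p of 0.05 there were 4 (background 8.79%), all lower (HK1, HK2, EPAS1 and CA12). Here and below, background shares of genes called or under an unadjusted p count changes in both directions. DESeq2 called 1, HK2 (background 0.856%), and limma-voom 0 (background 0.00471%). Estimates were above 0 for 14 of 41 (background 52.3%), with a median log2 fold change of -0.15 beside 0.02 for all genes. Both everolimus libraries were above both parental ones for 4 of the 41 (background 20.6%) and below both for 13 (background 20.5%). Without parental replicate 1 the median was 0.04, so its sign rests on that library, and without parental replicate 2 and everolimus replicate 1 it was -0.33 and -0.39.

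In ridaforolimus-resistant over parental cells 0 of 41 passed (background 0.32%), while 8 had an unadjusted p under 0.05 (background 14.5%), 6 of them higher. DESeq2 called 4 of 41 (background 3.0%): PGK1, ALDOC and P4HA1 as higher and EPAS1 as lower. Limma-voom called 0 (background 0.339%). Estimates were above 0 for 32 genes (background 51.3%), with a median of 0.37 beside 0.01 for all genes. The groups did not overlap for 15 higher genes (background 25.1%) and 3 lower ones (background 24.3%): EPAS1, VEGFA and SLC2A1. This tilt rested on ridaforolimus replicate 2. Without it the median was 0.03 and 22 of 41 estimates were above 0, and without ridaforolimus replicate 1 they were 0.50 and 35.

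Between the resistant lines 1 of 41 passed, PGK1, which was higher in the ridaforolimus line (background 0.744%). An unadjusted p under 0.05 was found for 13, all higher (background 14.1%), and DESeq2 called 6, all higher (background 3.29%): HK1, HK2, ALDOC, PGK1, ENO2 and P4HA1. Limma-voom called 1 of the 41 (background 0.532%). Estimates were above 0 for 34 of 41 (background 48.3%), and the median was 0.45 beside -0.02 for all genes. The ridaforolimus libraries were both above the everolimus ones for 20 genes (background 20.9%) and both below for 2, ADM and ANKRD37 (background 20.4%). Without ridaforolimus replicate 2 the median was 0.17. The comparisons share libraries, so their counts are not independent of each other.

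**Figure D1:**
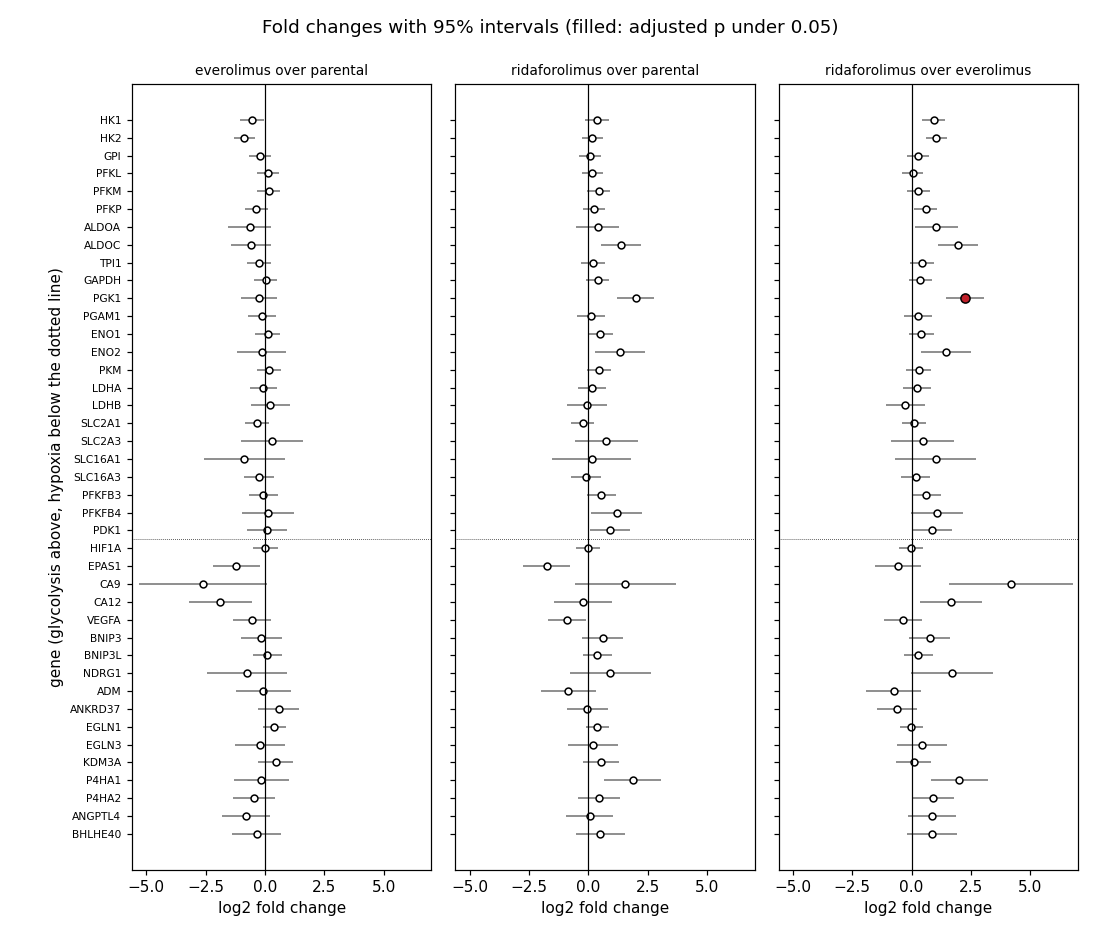
Log2 fold changes (points) with 95% intervals (lines) from the edgeR fit for the 41 genes in each of the 3 comparisons, glycolysis genes above and hypoxia genes below the dotted line. The filled point, PGK1 in ridaforolimus over everolimus at 2.25, is the 1 estimate with an adjusted p under 0.05.

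Glucose enters the cell through the transporters SLC2A1 and SLC2A3 and is trapped by the hexokinases. Both hexokinases were low in the everolimus line. HK2, the inducible hexokinase that binds mitochondria and is raised in many tumours, stood at 98.1 and 104 CPM in the parental, 50.4 and 60.4 in the everolimus and 108 and 120 in the ridaforolimus libraries. The everolimus libraries lay below all others, and the 2 libraries of each group were close. Its log2 fold change was -0.87 ± 0.19 in everolimus over parental cells (SE, 95% interval -1.30 to -0.44, adjusted p = 0.298) and 1.04 ± 0.19 in ridaforolimus over everolimus cells (0.61 to 1.47, adjusted p = 0.0576). DESeq2 gave adjusted p-values of 0.0324 and 0.00108, and with upper-quartile scaling edgeR gave 0.0456 for the second. HK2 lies on chromosome 2 at 74833981 to 74893359 (plus strand).

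HK1, the hexokinase of most tissues, had 349 and 263 CPM in the parental, 210 and 207 in the everolimus and 355 and 436 in the ridaforolimus libraries. Here too the everolimus libraries were the 2 lowest, at -0.56 ± 0.22 relative to parental cells (adjusted p = 0.531), and the resistant lines differed by 0.92 ± 0.22 (adjusted p = 0.114, 0.014 by DESeq2). Per kilobase of exon, HK1 was the more abundant in every group, at 48.6 CPM per kb beside 16.7 for HK2 in parental cells. SLC2A1, the basal glucose transporter GLUT1, ranged from 337 to 539 CPM, with both parental libraries (539 and 480) above the other 4. Its estimates were -0.35 and -0.24 in the everolimus and ridaforolimus lines over parental cells. SLC2A3, the high-affinity transporter GLUT3, ran from 31.3 CPM in everolimus replicate 2 to 115 CPM in ridaforolimus replicate 2, and overlapped between all groups.

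In upper glycolysis, glucose 6-phosphate is isomerised, phosphorylated again and split. All 7 enzymes of this stage had estimates above 0 in ridaforolimus over parental cells (0.07 to 1.37, background 51.3%). In everolimus over parental cells 2 of 7 did (background 52.3%). In these comparisons 0 passed the test (background 0.32% and 0.00471%). Without ridaforolimus replicate 2, 5 of 7 were above 0 in ridaforolimus over parental cells, with a median of 0.16. ALDOC, the aldolase typical of brain, led the 7 enzymes. It stood at 13.6 and 10.2 CPM in the parental, 7.97 and 7.93 in the everolimus and 19.5 and 42.1 in the ridaforolimus libraries. The 3 groups did not overlap. The fold change was 1.37 ± 0.36 over parental cells (adjusted p = 0.169, 0.0288 by DESeq2) and 1.95 ± 0.37 over everolimus cells (adjusted p = 0.0655, 0.000215 by DESeq2). Without ridaforolimus replicate 2 the first was 0.72. Without ridaforolimus replicate 1 edgeR gave 2.40 and 0.0285 for the second, and without replicate 2 it gave 1.31 and 0.209.

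ALDOA, the aldolase of muscle and most other cells, had 14.1 and 5.85 CPM in the parental, 6.66 and 6.08 in the everolimus and 11.9 and 14.1 in the ridaforolimus libraries. Parental and everolimus libraries overlapped, and the ridaforolimus line differed from the everolimus line by 1.03 ± 0.40 (adjusted p = 0.304). Of its exon bases 42.3% also belong to ENSG00000285043 on the same strand, so its reads may be lost or split in counting and its level is uncertain. The phosphofructokinases PFKL, PFKM and PFKP, which catalyse the committed step, had estimates of 0.17, 0.45 and 0.24 in ridaforolimus over parental cells. GPI (394 to 548 CPM) and TPI1 (431 to 722 CPM), an isomerase each, were highest in ridaforolimus replicate 2.

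Lower glycolysis produces ATP and pyruvate. All 6 of its enzymes had estimates above 0 in the ridaforolimus line over parental cells (0.13 to 1.99, background 51.3%). Over everolimus cells all 6 did as well (0.27 to 2.25, background 48.3%), and 1 passed there (background 0.744%). Without ridaforolimus replicate 2 all 6 stayed above 0 in both comparisons, with medians of 0.24 and 0.22. PGK1, phosphoglycerate kinase, makes the first ATP of the pathway. It stood at 457 and 389 CPM in the parental, 384 and 321 in the everolimus and 1080 and 2280 in the ridaforolimus libraries. Both ridaforolimus libraries were above all others, and they also differed from each other. Its mean was 1680 ± 851 CPM in the ridaforolimus group, 352 ± 44.1 in the everolimus and 423 ± 48.1 in the parental group (SD, n = 2 libraries each). PGK1 rose by 2.25 ± 0.35 on the log2 scale, or 4.76-fold, in ridaforolimus over everolimus cells (95% interval 1.46 to 3.05, adjusted p = 0.0371 by edgeR's quasi-likelihood test, 0.0388 by limma-voom). Over parental cells the estimate was 1.99 ± 0.34 (1.2 to 2.78), with an adjusted p of 0.0677 by edgeR, 0.0663 by limma-voom and 8.6e-06 by DESeq2. The everolimus line stood at -0.26 ± 0.33 relative to parental cells (adjusted p = 0.863).

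The edgeR call of PGK1 between the lines was near its threshold. It ended when any one of 5 libraries was left out (adjusted p 0.0653 to 0.101), and without ridaforolimus replicate 1 it was 0.0285. The fold change itself ranged from 1.63 without ridaforolimus replicate 2 to 2.69 without replicate 1. Over parental cells edgeR called PGK1 without ridaforolimus replicate 1 (2.42, adjusted p = 0.0291) or without either everolimus replicate (0.0377 and 0.0430). PGK1 has processed copies elsewhere in the genome whose reads the counting could share.

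ENO2, the neuron-type enolase, had 133 and 84.4 CPM in the parental, 113 and 85.4 in the everolimus and 138 and 404 in the ridaforolimus libraries. Ridaforolimus replicate 1 was barely above the higher parental library, and replicate 2 stood alone. The fold change over parental cells was 1.32 ± 0.46 (adjusted p = 0.265) and became 0.36 without replicate 2. The common enolase ENO1 was far more abundant per kilobase of exon in parental cells (297 CPM per kb beside 25.4 for ENO2), and its estimate was 0.51. GAPDH, often taken as a reference gene, ran from 1090 CPM in everolimus replicate 1 to 1740 CPM in ridaforolimus replicate 2, with an estimate of 0.39 in ridaforolimus over parental cells. PKM, the pyruvate kinase, ran from 1640 to 2710 CPM and PGAM1, the phosphoglycerate mutase, from 192 to 312 CPM. GAPDH, ENO1, PKM and PGAM1 have near-identical pseudogene copies, which leaves their counts uncertain.

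**Figure D2:**
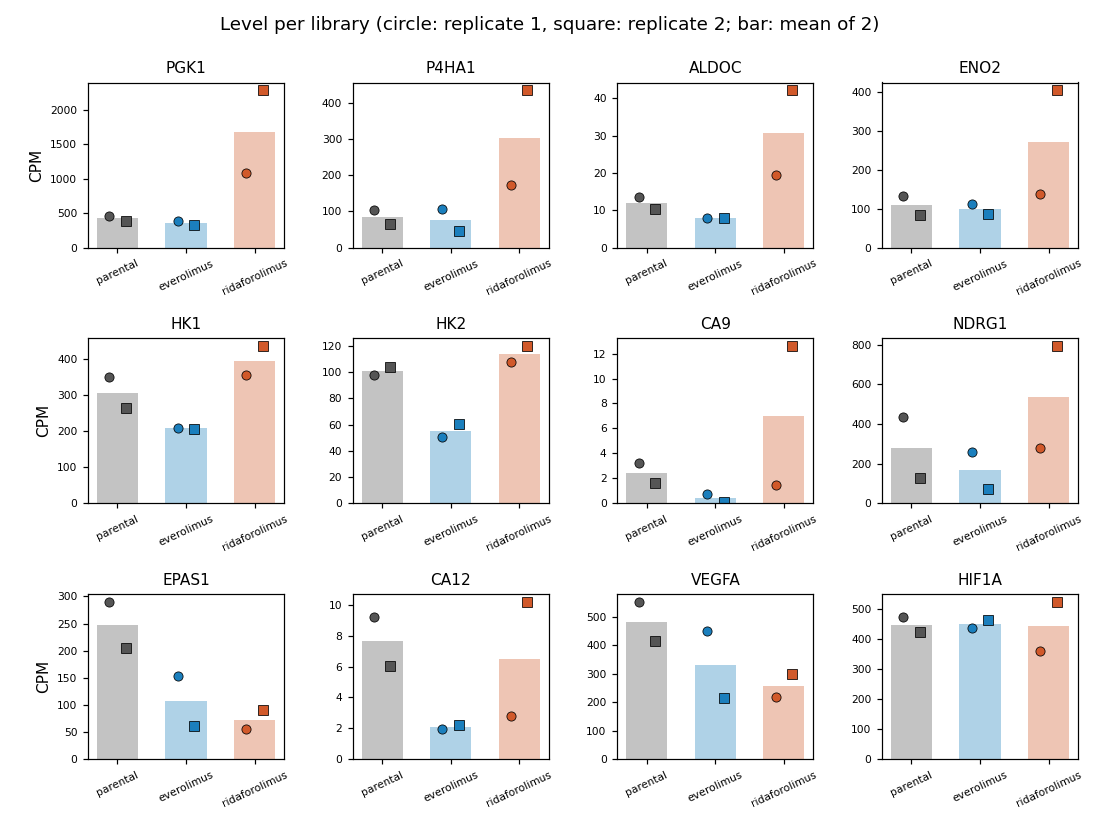
Level of 12 genes in CPM in each library (circles replicate 1, squares replicate 2) with the group mean as a bar; each panel has its own axis from 0. PGK1, P4HA1 and ALDOC have both ridaforolimus libraries above all others, EPAS1 has both parental libraries above all others, and in ENO2, CA9 and NDRG1 ridaforolimus replicate 2 stands alone (404, 12.6 and 793 CPM).

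Of the 4 lactate genes none separated the ridaforolimus from the other groups. LDHA, which turns pyruvate into lactate, ran from 819 to 1280 CPM, and LDHB, which favours the reverse reaction, from 6.79 to 14.5 CPM. LDHB shares 33.4% of its exon bases with ENSG00000285854 on the same strand, so its level is uncertain. SLC16A1, the lactate transporter MCT1, had 20.2 and 20.7 CPM in the parental, 18.3 and 4.23 in the everolimus and 36.9 and 8.33 in the ridaforolimus libraries. In both resistant lines replicate 2 was the lower, opposite to most of the set in the ridaforolimus group, and the groups overlapped except for everolimus below parental (-0.87 ± 0.74, adjusted p = 0.783). The lactate exporter SLC16A3 ran from 182 to 307 CPM.

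Among the regulators of flux, PDK1 encodes a kinase that inhibits pyruvate dehydrogenase. It had 91.3 and 70.8 CPM in the parental, 118 and 52.7 in the everolimus and 125 and 181 in the ridaforolimus libraries. The ridaforolimus libraries were the 2 highest. The fold change over parental cells was 0.92 ± 0.37 (adjusted p = 0.311). PFKFB4, which makes the activator of phosphofructokinase, ran from 25.6 to 118 CPM and had an estimate of 1.19 ± 0.47 (adjusted p = 0.304) that became 0.29 without ridaforolimus replicate 2. PFKFB3, of the same family, stood at 0.54.

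The 2 HIF alpha subunits showed different patterns. HIF1A, the broadly expressed subunit, had 473 and 425 CPM in the parental, 439 and 465 in the everolimus and 361 and 525 in the ridaforolimus libraries. The groups overlapped, and the 95% interval of ridaforolimus over parental cells ran from -0.54 to 0.50. Its estimates were between -0.03 and 0.01, and their sign depended on the scaling. Since HIF1A is controlled mostly through the stability of its protein, its RNA says little about its activity.

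EPAS1, which encodes HIF-2 alpha, had 290 and 204 CPM in the parental, 153 and 61.1 in the everolimus and 55.7 and 89.6 in the ridaforolimus libraries. Both parental libraries were above all 4 resistant ones. Relative to parental cells EPAS1 stood at -1.21 ± 0.42 in everolimus cells (95% interval -2.18 to -0.23, adjusted p = 0.512) and at -1.76 ± 0.43 in ridaforolimus cells (-2.75 to -0.77, adjusted p = 0.145 by edgeR and 0.00368 by DESeq2). Both estimates are against the same 2 parental libraries. In ridaforolimus over parental cells the estimate was -2.14 without ridaforolimus replicate 2 and -1.47 without replicate 1. The gene lies on chromosome 2 at 46293667 to 46386703 (plus strand). The oxygen sensors EGLN1, the main prolyl hydroxylase, and EGLN3, a hydroxylase that HIF itself induces, had estimates of 0.38 and 0.21 in ridaforolimus over parental cells, and EGLN1 stood at 0.39 in everolimus over parental cells, with both everolimus libraries (28.4 CPM each) above both parental ones (22.5 and 20.6).

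The carbonic anhydrases handle the acid that glycolysis produces, and both were lowest in the everolimus line. CA9, a cell-surface enzyme used as a marker of hypoxia in tumours, had 42 and 23 counts in the parental, 10 and 1 in the everolimus and 19 and 172 in the ridaforolimus libraries, or 3.21, 1.62, 0.724, 0.0661, 1.45 and 12.6 CPM in that order. The everolimus libraries were the 2 lowest, and ridaforolimus replicate 1 was below both parental libraries while replicate 2 was above all. The fold change was -2.62 ± 1.17 in everolimus over parental cells (adjusted p = 0.577) and 4.16 ± 1.14 in ridaforolimus over everolimus cells (95% interval 1.55 to 6.77, adjusted p = 0.157). The second was 1.91 without ridaforolimus replicate 2 and 5.0 without replicate 1. In ridaforolimus over parental cells it was 1.54 ± 0.93 and turned to -0.72 without replicate 2. CA9 shares 38.5% of its exon bases with ARHGEF39 on the opposite strand, and the strand setting of the counting is not given in the sources used here.

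CA12, a second cell-surface anhydrase, had 9.24 and 6.06 CPM in the parental, 1.96 and 2.18 in the everolimus and 2.82 and 10.2 in the ridaforolimus libraries. The everolimus libraries were again the 2 lowest, at -1.88 ± 0.57 relative to parental cells (95% interval -3.20 to -0.56, adjusted p = 0.458). The ridaforolimus libraries spanned the parental range.

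Among secreted factors VEGFA, the main growth factor of vessels, had 552 and 413 CPM in the parental, 449 and 213 in the everolimus and 217 and 298 in the ridaforolimus libraries. Both ridaforolimus libraries were below both parental ones, with a fold change of -0.90 ± 0.35 (95% interval -1.72 to -0.09, adjusted p = 0.301). PGK1 and P4HA1, known HIF targets too, had estimates of 1.99 and 1.86 in that comparison (adjusted p = 0.0677 and 0.186). The part of HIF in these values was not tested. ADM, the vasodilator adrenomedullin, had an estimate below 0 in ridaforolimus over parental cells, as VEGFA did (-0.84 ± 0.51, adjusted p = 0.494). ANGPTL4, a secreted inhibitor of lipoprotein lipase, had 229 and 98.2 CPM in the parental, 103 and 84.6 in the everolimus and 110 and 228 in the ridaforolimus libraries, and its ridaforolimus estimate over parental cells was 0.05.

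The prolyl 4-hydroxylase subunits P4HA1 and P4HA2 modify collagen in the endoplasmic reticulum and are HIF targets. P4HA1 had 104 and 63.9 CPM in the parental, 106 and 44.6 in the everolimus and 173 and 435 in the ridaforolimus libraries. Both ridaforolimus libraries were above the other 4. The fold change was 1.86 ± 0.52 over parental cells (95% interval 0.66 to 3.06, adjusted p = 0.186 by edgeR and 0.0109 by DESeq2) and 2.01 ± 0.52 over everolimus cells (adjusted p = 0.144 and 0.00348). Without ridaforolimus replicate 2 the first was 1.05 and the second 1.22. P4HA2 had 56.8 and 35.3 CPM in the parental, 38.9 and 28.3 in the everolimus and 39.3 and 86.6 in the ridaforolimus libraries, where replicate 1 lay within the parental range.

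NDRG1, a stress-responsive protein and a sensitive hypoxia marker, had 436 and 126 CPM in the parental, 257 and 73.9 in the everolimus and 277 and 793 in the ridaforolimus libraries. Both ridaforolimus libraries were above both everolimus ones, at 1.69 ± 0.75 (95% interval -0.03 to 3.41, adjusted p = 0.362), and at 0.77 without ridaforolimus replicate 2. Its ridaforolimus estimate over parental cells was 0.93 and became -0.01 without replicate 2. The mitophagy receptors BNIP3 and BNIP3L had estimates of 0.60 and 0.37 in that comparison, the histone demethylase KDM3A 0.53 and the transcriptional repressor BHLHE40 0.51. ANKRD37, a small ankyrin protein, was at 2.29 to 5.14 CPM and shares 35.2% of its exon bases with UFSP2 on the opposite strand. BNIP3, BNIP3L and BHLHE40 were highest in ridaforolimus replicate 2 (282, 175 and 457 CPM) and KDM3A in everolimus replicate 1 (157 CPM).

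The hypoxia genes differed between the 2 libraries of a group in a shared direction. In the parental group replicate 2 was below replicate 1 for 17 of 17 hypoxia genes, and in the everolimus group for 15 of 17. In the ridaforolimus group replicate 2 was above replicate 1 for 17 of 17. The median ratio of replicate 2 to replicate 1 was 0.659, 0.649 and 2.04 in the 3 groups, and 0.994, 0.978 and 1.01 over all genes tested. For NDRG1 replicate 1 was 3.45 and 3.48 times replicate 2 in the parental and everolimus groups, and replicate 2 was 2.86 times replicate 1 in the ridaforolimus group. Replicates have no order, so such a ratio only says how far the libraries of a group stood apart.

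Over all 41 genes, replicate 2 was the higher for 7 in the parental group (background 49.1%), 14 in the everolimus group (background 47.4%) and 38 in the ridaforolimus group (background 50.6%). The exceptions in the ridaforolimus group were LDHB, SLC16A1 and PFKM. Replicate 2 was at least 1.5-fold the higher for 0 genes in the parental (background 5.89%), 2 in the everolimus (background 12.7%) and 19 in the ridaforolimus group (background 14.4%). It was at least 1.5-fold the lower for 12 (background 8.8%), 13 (background 16.6%) and 2 (background 11.7%). The background shares of the 1.5-fold counts are over the 18222 genes with a mean of at least 1 CPM. Those of the higher replicate are over all 21223 genes tested. Of the 24 glycolysis genes 7, 12 and 21 were higher in replicate 2 in the parental, everolimus and ridaforolimus groups.

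**Figure D3:**
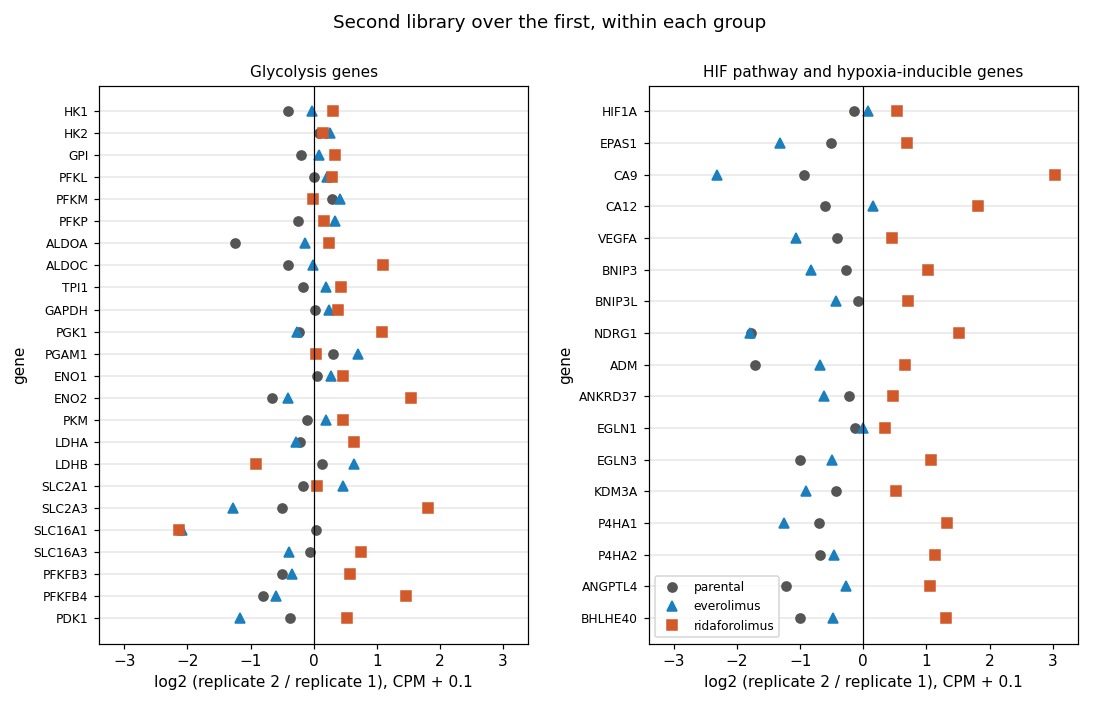
Log2 ratio of replicate 2 to replicate 1 (CPM + 0.1) for each gene within the parental (circles), everolimus (triangles) and ridaforolimus (squares) groups. In the right panel all 17 hypoxia genes lie right of 0 in the ridaforolimus group and all 17 left of 0 in the parental group; the median ratios were 2.04 and 0.659.

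Averaged as log2(CPM + 1) and centred on the 6 libraries, the 17 hypoxia genes stood at 0.40 and -0.26 in the parental, 0.03 and -0.61 in the everolimus and -0.27 and 0.71 in the ridaforolimus libraries. The ridaforolimus group thus held the highest and the second lowest library, and the groups overlapped. The 24 glycolysis genes stood at 0.03 and -0.19, -0.21 and -0.32, and 0.14 and 0.55. On this measure both ridaforolimus libraries were the highest and both everolimus libraries the lowest. Everolimus replicate 1 was only just below parental replicate 2. Summed CPM of these genes also put the ridaforolimus libraries highest (10600 and 15200). By that sum everolimus replicate 2 (9370) lay above parental replicate 2 (8940). Ridaforolimus replicate 2 was the highest library for 30 of the 41 genes, beside 23.3% of all genes, and everolimus replicate 2 the lowest for 16, beside 20.6%. For the hypoxia genes the median fold change of ridaforolimus over parental cells was 0.37, -0.30 without ridaforolimus replicate 2 and 0.64 without replicate 1. For the glycolysis genes it was 0.38, 0.22 and 0.46.

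**Figure D4:**
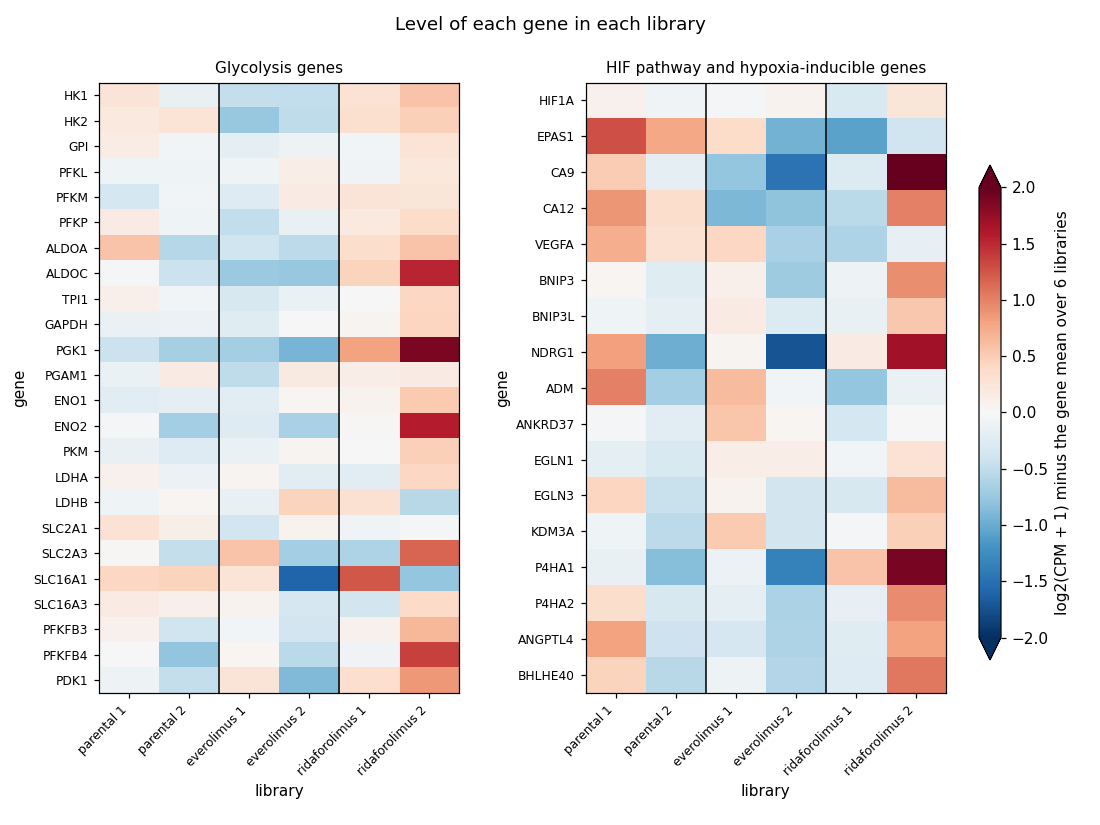
Log2(CPM + 1) of each of the 41 genes in each library, minus the gene's mean over the 6 libraries, with glycolysis genes left and hypoxia genes right. The column of ridaforolimus replicate 2 is the highest for 30 of the 41 genes, and PGK1 and P4HA1 are also high in ridaforolimus replicate 1.

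Other measures of the libraries were set beside this pattern. The mitochondrial share of the counts was 2.42% and 3.19% in the ridaforolimus libraries, 4.38% and 3.0% in the parental and 2.38% and 2.15% in the everolimus ones. The summed level of 4 endothelial markers was 15.7 and 10.6 CPM, 13 and 4.43 CPM, and 3.73 and 11.5 CPM in the parental, everolimus and ridaforolimus libraries. Most of it came from PECAM1 and KDR, and CDH5 was at 0.382 CPM or less. The summed level of 5 immune markers, mostly CD14, was 2.22 and 1.69, 1.30 and 0.397, and 0.838 and 2.19 CPM. The 6 fibroblast markers summed to 6.37 to 16.1 CPM, mostly COL1A1, with replicate 2 the higher in every group. Within each group the mitochondrial share and the endothelial and immune sums were higher and lower in the same libraries as the hypoxia genes. The fibroblast sum was so in the ridaforolimus group only. The part of these measures in the hypoxia pattern was not tested.

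Genes of the same pathways outside the set were read from the same fit. Of 39 other glycolysis genes 30 passed the filter, and 0 of them were called by edgeR in any comparison, with 2, 7 and 4 at an unadjusted p under 0.05 in everolimus over parental, ridaforolimus over parental and ridaforolimus over everolimus cells (background 8.79%, 14.5% and 14.1%). DESeq2 called 0, 1 and 0 of them (background 0.856%, 3.0% and 3.29%) and limma-voom 0 in each. Their median fold changes were -0.03, -0.05 and -0.08. The glucose transporter SLC2A12 stood at 0.98 and 1.25 in the everolimus and ridaforolimus lines over parental cells, its relative SLC2A10 at 1.55 in the ridaforolimus line, the hexokinase-like HKDC1 at -0.75 and 1.15, and TIGAR, which lowers an activator of phosphofructokinase, at -0.76 and -0.93. In the ridaforolimus line SLC2A10 was at 0.75 without replicate 2, and HKDC1 at 0.22 without replicate 1. Adjusted p-values of this list were 0.159 or more.

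Of 15 components of the HIF pathway itself 14 were tested, and 0 were called by edgeR or limma-voom in any comparison. At an unadjusted p under 0.05 there were 1, 2 and 3, and DESeq2 called 0, 0 and 1, against the same background shares. The HIF partner ARNT stood at -0.11 and 0.03 over parental cells. VHL, the substrate receptor of the ligase, stood at -0.53 in the everolimus and -0.66 in the ridaforolimus line, with 138 and 132 CPM in the parental, 110 and 76.4 in the everolimus and 82.2 and 88.5 in the ridaforolimus libraries. CITED2, a competitor of HIF for its coactivators, stood at 0.47 and -0.74, the second -1.37 without ridaforolimus replicate 2. The lowest adjusted p of these 14 genes was 0.182.

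Of 38 other hypoxia-inducible genes 36 were tested, and 0 were called by edgeR or limma-voom, with 1, 6 and 10 at an unadjusted p under 0.05 (background 8.79%, 14.5% and 14.1%) and 0, 0 and 2 called by DESeq2 (background 0.856%, 3.0% and 3.29%). Their median in ridaforolimus over parental cells was 0.35, and -0.05 without ridaforolimus replicate 2. The repressor MXI1 stood at 0.97, the sterol regulator INSIG2 at 0.86, the glycogen branching enzyme GBE1 at 0.75 and the glycoprotein hormone STC2 at -1.69 (adjusted p 0.213 to 0.298). STC2 was at -0.98 without ridaforolimus replicate 2 and at -3.09 without replicate 1. The chemokine receptor CXCR4 had 0.84 and 0.141 CPM in the parental, 3.48 and 1.19 in the everolimus and 0.0762 and 0.292 in the ridaforolimus libraries. Replicate 2 was above replicate 1 for 5 of 36 in the parental, 9 in the everolimus and 31 in the ridaforolimus group. The matrix crosslinking enzyme LOX, singled out after its values were seen, had 117 and 64.0 CPM, 91.3 and 29 CPM, and 44.6 and 196 CPM in the 3 groups.

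PGK1 differs from the other genes of the set in its place, as the only one on chromosome X, at 77910739 to 78129296 (plus strand). The 4 tested genes before it and the 4 after it, in order of start position, were read for comparison. They are not 8 separate places: C4orf46P2 lies wholly and ATP7A almost wholly inside the annotated span of PGK1, and PSMA1P1 lies inside that of BRWD3. The RefSeq start used for the PGK1 promoter follows 78104247, inside the GENCODE span. By that start C4orf46P2, which ends at 77964890, would lie before PGK1, so the order depends on the annotation. BRWD3 is far from PGK1, with its span beginning at 80670854. In ridaforolimus over parental cells all 8 had estimates above 0 (background 51.3%), from 0.87 for COX7B to 1.91 for BRWD3, with a median of 1.33. Both ridaforolimus libraries were above both parental ones for all 8 (background 25.1%). EdgeR called 3 of them (background 0.32%). These were ATRX, a chromatin remodeller (1.69, adjusted p = 0.0244), MAGT1, a subunit of the glycosylation machinery (1.22, adjusted p = 0.0321), and BRWD3 (1.91, adjusted p = 0.0491). Over everolimus cells the median was 1.65 and 5 of 8 were called (background 0.744%). In everolimus over parental cells their median was -0.13. These background shares are over all chromosomes, and none was computed over chromosome X alone.

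Of these neighbours, ATRX had 158 and 157 CPM in the parental, 173 and 166 in the everolimus and 426 and 594 in the ridaforolimus libraries. MAGT1 had 72.0 and 71.9, 64.5 and 64.5, and 170 and 166 CPM. Without ridaforolimus replicate 2 the median of the 8 over parental cells was 1.22 beside 1.36 for PGK1, and without replicate 1 it was 1.55 beside 2.42. Relative to parental cells, PGK1 was within the range of its neighbours in ridaforolimus replicate 1 and above each of them in replicate 2. Of the 8, ATP7A and C4orf46P2 overlap 1.8% and 1.7% of the exon bases of PGK1, and C4orf46P2 and PSMA1P1 are pseudogenes. Without PGK1 the median of the other 40 members in ridaforolimus over parental cells was 0.37, and 31 of 40 estimates were above 0.

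**Figure D5:**
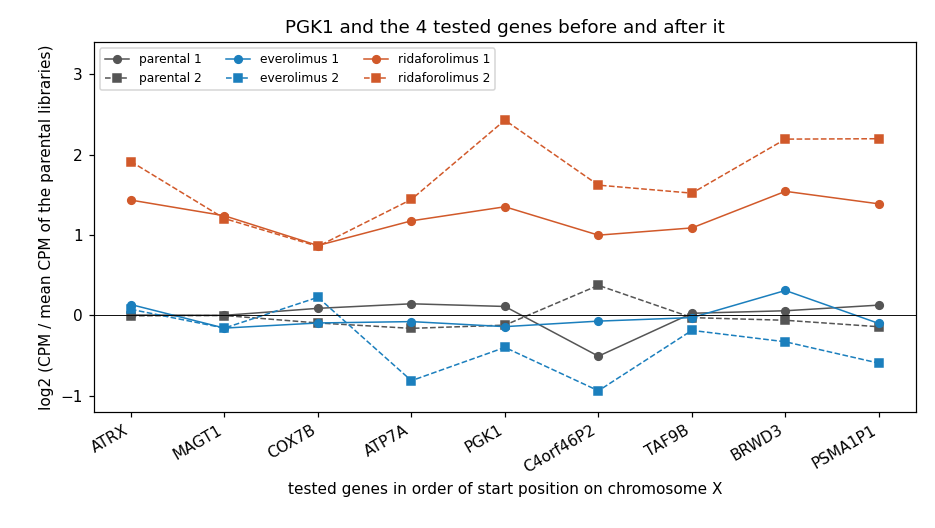
Log2 of the level in each library over the mean of the parental libraries for PGK1 and the 4 tested genes before and after it, in order of start position on chromosome X; some of their spans overlap. Both ridaforolimus libraries lie above the other 4 at all 9 genes, and PGK1 in ridaforolimus replicate 2 is the highest point.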

How the data were processed

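RNA was sequenced from 6 libraries with the TruSeq Stranded mRNA kit, per the labels' protocols. The table that the authors deposited holds unnormalized counts of reads for each Ensembl gene ID, 1 column per library. The submitters' processing notes list the build GRCh38 (hg38), DESeq2, HTSeq 0.13.5, STAR 2.7.9a and Trim Galore 0.6.6, with no roles. Neither strandedness of the counting nor its annotation is given in the sources used here. Symbols came from a reference table that matched 62625 of 69292 IDs; IDs without a symbol took 0.00288% to 0.00399% of the counts. Positions are from GENCODE 29, an annotation of GRCh38.

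The counts were fitted with edgeR 4.0.16 in R 4.3.3 (TMM, filterByExpr by group, quasi-likelihood test, two-sided) on all 6 libraries, with 3 residual degrees of freedom and Benjamini-Hochberg adjustment over the 21223 genes tested. Where no tool is named, an adjusted p is edgeR's. Fold changes are log2 values ± SE. CPM used TMM-scaled library sizes. DESeq2 1.42.0 and limma 3.58.1 (voom), other scalings and filters, a fit of 2 groups, a replicate block, a fit without chromosome X and leaving out each library were alternatives. The fitting was tested on simulated counts. The genes, lists and tests were chosen with earlier results of these data known.

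Genes described in every library were those called, those with an absolute log2 fold change of at least 0.8 and groups that did not overlap at a mean of at least 1 CPM, and both HIF alpha subunits, 17 in all. Genes outside the set came from the up to 4 per list and comparison with the largest changes among those whose groups did not overlap. Not all of these are given. Left out in ridaforolimus over everolimus cells were, for example, STC1 (1.86), CITED2 (-1.21) and DLAT (-0.81), with adjusted p-values of 0.323, 0.182 and 0.175. The 4 tested genes before and after PGK1 by start position were also read. ADM, LOX and ARNT were added outside this rule.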

Additional observations from a re-analysis of the deposited data

Results flagged for a closer look

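PGK1 differed between the resistant lines by a test of the difference itself: its log2 fold change in ridaforolimus over everolimus cells was 2.25 (adjusted p = 0.0371, edgeR). The call was near its threshold. It ended in most fits without 1 library, at 5 CPM, with only 2 groups and with the replicate block. Of its 8 neighbours on chromosome X, 5 were called in the same comparison (background 0.744%). That background is over all chromosomes, and no share over chromosome X was computed.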

How the results depend on the processing

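Of 759 recomputed fold changes of the 17 described genes, 677 kept their direction and side of the threshold, 42 newly passed it, 8 no longer passed and 32 changed sign. The cause was not tested. With limma-voom the estimates were -0.03 for PDK1 (everolimus over parental) and -0.23 for SLC16A1 (ridaforolimus over parental). With upper-quartile scaling, which moved the median of all genes to 0.11 in ridaforolimus over parental cells, HIF1A was 0.08 there and 0.03 over everolimus cells. With at least 5 CPM in 2 libraries, which kept 39 members, HIF1A was 0.03 over parental cells.

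Leaving out 1 library at a time gave these ranges. In everolimus over parental cells they were -1.14 to 0.12 for ALDOA, -0.43 to 0.23 for ENO2, -1.92 to 0.38 for NDRG1, -0.91 to 0.34 for P4HA1, -0.61 to 0.53 for PDK1 and -0.06 to 0.09 for HIF1A. In ridaforolimus over parental cells they were -0.31 to 0.22 for HIF1A, -1.43 to 0.41 for CA12, -0.12 to 1.14 for ALDOA, -0.56 to 0.77 for ANGPTL4, -1.31 to 0.86 for SLC16A1, -0.72 to 2.37 for CA9, -0.01 to 2.07 for NDRG1 and -0.22 to 0.91 for P4HA2. In ridaforolimus over everolimus cells they were -1.07 to 0.24 for EPAS1, -0.80 to 0.26 for VEGFA, -0.31 to 0.21 for HIF1A and -0.42 to 2.41 for SLC16A1. The median of the 41 genes ranged from -0.39 to 0.04, from 0.03 to 0.50 and from 0.17 to 0.64 in the 3 comparisons.

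In everolimus over parental cells 1 gene passed. The count was 0 with upper-quartile scaling, 5 CPM, 2 groups or the replicate block, 493 with no filter, 150 by DESeq2 and 0 to 3 without 1 library; of the 41, 4 passed with no filter and 1 by DESeq2. In ridaforolimus over parental cells 68 passed: 1195 with no filter, 574 by DESeq2, 127 with 2 groups, 28 with the replicate block, 37 without chromosome X and 1 to 276 without 1 library; of the 41, 11 passed with no filter, 4 by DESeq2 and 0 to 2 without 1 library. Between the lines 158 passed: 1362 with no filter, 81 at 5 CPM, 657 by DESeq2, 0 with 2 groups, 49 with the replicate block, 74 without chromosome X and 19 to 123 without 1 library. Of the 41, 1 passed: 2 with upper-quartile scaling (with HK2), 15 with no filter, 6 by DESeq2, 0 at 5 CPM, with 2 groups, with the replicate block or without chromosome X, which removes PGK1, and 0 to 2 without 1 library. With upper-quartile scaling 95 of 21223 genes were called as higher and 45 as lower between the lines. The fit with no filter took every gene ID with a count, and 28459 of 69292 IDs had none. Its counts of the 41 (4, 11 and 15) stand beside 493, 1195 and 1362 of all genes, with no share computed. PGK1 between the lines had adjusted p-values of 0.0591 at 5 CPM and 0.119 with 2 groups. Replicate numbers are only shared numbers: deviations of same-numbered libraries correlated at 0.329 (parental and everolimus), -0.167 (parental and ridaforolimus) and -0.186 (both lines). With the replicate block PGK1 between the lines was 2.21 (adjusted p = 0.0877) and SLC16A1 in ridaforolimus over parental cells -0.32.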
